A study of Sus scrofa with 11 samples.

Results

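The comparison described here sets pigs whose ischemic heart muscle was injected with extracellular vesicles against pigs injected with vehicle, both on a normal diet. Its 6 arrays were chosen by their titles, ND+EV (3 arrays) and ND (3 arrays), from the 11 arrays of the series, whose other 5 are HFD+EV (3) and HFD (2), the same pair of injections under a high fat diet. All groups were male Yorkshire pigs that ate their diet for 12 weeks, had a slowly closing ameroid constrictor on the left circumflex coronary artery, and gave left ventricle from the ischemic zone 5 weeks after the injection into that zone. The controls therefore carry the same coronary occlusion, and no heart without it was compared. No source used here gives the cells the vesicles came from, their dose or the age of the pigs. The titles call the arrays of a group biological replicates, but no label ties an array to a named animal. The p-values therefore measure the spread between arrays within groups, pooled over all 11 arrays of the series.

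Extracellular vesicles are membrane particles that cells release and that carry protein, RNA and lipid to other cells, and they have been injected into ischemic heart as a means to promote vessel growth. Vessel growth in ischemic muscle is driven in part by VEGFA and other ligands that act on receptors of endothelial and mural cells. The beating ventricle draws most of its ATP from the mitochondrial respiratory chain, whose subunits are encoded partly in the nucleus and partly in mitochondrial DNA, while cytosolic ribosomes make proteins and the proteasome breaks them down.

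Each array gave a normalized log2 signal per probe set, and a difference of 1 on this scale is a doubling of signal. ND replicates 1 and 3 stood apart. Over the 20668 probe sets tested, the 3 pairs of ND+EV arrays correlated at 0.971 to 0.973, and ND replicate 2 correlated with the ND+EV arrays at 0.969 to 0.972, whereas ND replicates 1 and 3 correlated with each other at 0.922. Signals at least 1 log2 unit below the lowest ND+EV array numbered 433 in ND replicate 1, 14 in ND replicate 2 and 132 in ND replicate 3. Signals as far above the highest ND+EV array numbered 106, 29 and 112 in ND replicates 1, 2 and 3. ND replicate 2 was thus nearly as close to the ND+EV arrays as they were to one another. The results below are given array by array, and again with ND replicates 1 and 3 left out, which leaves a single ND array.

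**Figure D1:**
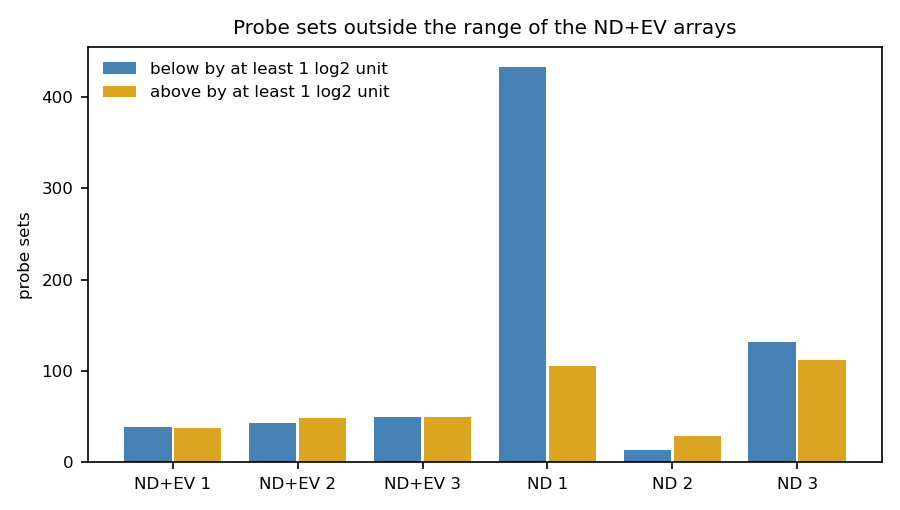
Number of probe sets (of 20668) lying at least 1 log2 unit below (blue) or above (yellow) the range of the 3 ND+EV arrays, for each ND array (right), and, for each ND+EV array (left), outside the range of the other 2 ND+EV arrays. ND 1, the first ND replicate, has 433 below and ND 2 has 14.

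No probe set differed between ND+EV and ND after Benjamini-Hochberg adjustment in limma (0 of 20668, 0.0%, smallest adjusted p = 0.120). At an unadjusted p below 0.05, 1027 probe sets (4.97%) were higher and 731 (3.54%) were lower in ND+EV. Without ND replicate 2 these counts were 1605 and 1151, and 2 probe sets with no gene name passed the adjusted threshold. Without ND+EV replicate 2 there were 628 higher, and with ND replicates 1 and 3 left out there were 482 higher and 657 lower. Every value below is therefore a description of 6 arrays in which no single gene passed the test.

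Genes were counted through the probe set with the highest mean signal, which gave 9738 genes, of which 51.3% were higher in ND+EV by any amount. The median gene differed by 0.0072 on the log2 scale. At an unadjusted p below 0.05, 475 genes (4.88%) were higher and 306 (3.14%) lower. The 3 ND+EV arrays all lay above the 3 ND arrays in 680 genes (6.98%) and all below them in 533 (5.47%). With a fold of at least 1.5 as well, 158 genes (1.62%) were higher and 26 (0.267%) lower. Of the 147 characterised genes among those higher, ND replicate 1 was the lowest array in 109, ND replicate 3 in 36 and ND replicate 2 in 2. The mean of ND+EV exceeded ND replicate 1 by a fold of 1.5 in 134 of the 147, ND replicate 3 in 90 and ND replicate 2 in 36. Among the 20 characterised genes that were lower, ND replicate 2 reached that fold in 12.

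Among the genes higher in ND+EV, the smallest p belonged to RNGTT, the enzyme that caps messenger RNA. Its log2 signal was 9.04, 8.88 and 8.77 in ND+EV, against 7.68, 8.26 and 7.90 in ND. The groups were 0.50 apart at their nearest arrays, and the difference was 0.94 ± 0.15 (SE, a fold of 1.93), with an adjusted p of 0.346 in limma. A second probe set of RNGTT differed by 0.24 ± 0.22. SKA2, a component of the complex that ties chromosomes to the mitotic spindle, had 5.85, 6.10 and 6.02 in ND+EV, against 4.84, 5.37 and 4.38 in ND. It was higher by 1.13 ± 0.22, with an adjusted p of 0.535 in limma.

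HPRT1, which salvages purine bases, had 5.40, 5.57 and 5.39 in ND+EV, against 4.83, 4.61 and 4.80 in ND. Here the lowest ND array was replicate 2, so the difference of 0.71 ± 0.15 did not come from ND replicates 1 and 3 alone. ERGIC2, a protein of the compartment between endoplasmic reticulum and Golgi, had 6.64, 6.75 and 6.52 in ND+EV, against 6.05, 6.04 and 6.03 in ND, where the 3 arrays were nearly equal. MRPL16, a protein of the large subunit of the mitochondrial ribosome, had 6.27, 6.28 and 6.27 in ND+EV, against 5.23, 5.61 and 5.58 in ND. Its groups were 0.65 apart at the nearest arrays, the widest gap among named genes that were higher. RXFP1, the relaxin receptor, had 5.82, 5.82 and 5.89 in ND+EV, against 4.84, 5.14 and 5.41 in ND.

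The rest of the 12 genes taken by smallest p differed by 0.64 to 0.87 on the log2 scale. They were UBE2L3, a ubiquitin-conjugating enzyme (0.84 ± 0.18), CYYR1 (0.87 ± 0.19), ATG4A, a protease that processes autophagy proteins (0.75 ± 0.17), TAB3, an adaptor of the TAK1 kinase (0.64 ± 0.15), ATP6V1C1, a subunit of the proton pump of lysosomes (0.64 ± 0.15), and CBX3, a heterochromatin protein (0.77 ± 0.18). The adjusted p was 0.539 in limma for each of them. With ND replicates 1 and 3 left out, no gene named here passed, the smallest adjusted p being 0.779.

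Among the genes lower in ND+EV, YJEFN3 had the smallest p. It had 3.47, 3.90 and 4.08 in ND+EV, against 5.27, 4.81 and 4.96 in ND, a difference of -1.19 ± 0.19 with an adjusted p of 0.346 in limma. A second probe set of the gene differed by 0.06 ± 0.15, so its probe sets disagreed. HOOK2, which links cargo to microtubules, had 5.12, 5.16 and 5.02 in ND+EV, against 5.71, 6.19 and 5.78 in ND.

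SPRED2, an inhibitor of the Ras to ERK pathway that growth factor receptors use, had 5.69, 5.39 and 5.44 in ND+EV, against 6.28, 6.03 and 6.07 in ND. The difference was -0.62 ± 0.14 and every ND array lay above every ND+EV array. AKAP13, an anchor for protein kinase A, had 7.79, 7.94 and 8.05 in ND+EV, against 8.52, 8.77 and 8.46 in ND, and ND replicate 2 was the highest. ZBED3, an axin-binding protein of the Wnt pathway, had 5.16, 5.13 and 5.22 in ND+EV, against 6.26, 5.65 and 5.74 in ND. Differences for the remaining lower genes were -0.70 ± 0.18 for GFOD1, -0.69 ± 0.18 for the small GTPase RAB40B, -0.69 ± 0.19 for MICAL3, an enzyme that oxidises actin, -0.72 ± 0.20 for the transcription factor PAX1 and -0.67 ± 0.20 for the metalloprotease ADAM33. The choice of these lower genes required their groups not to overlap, and none passed the adjusted threshold.

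**Figure D2:**
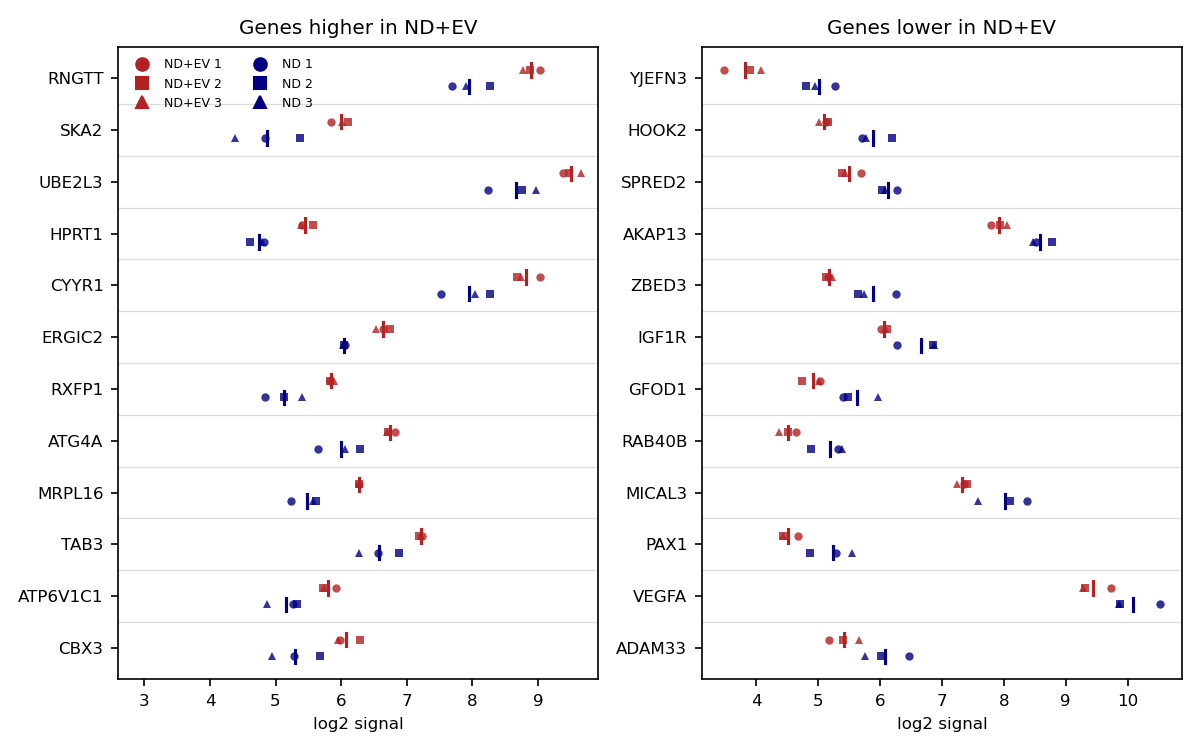
Log2 signal (x axis) of the 12 genes higher and the 12 genes lower in ND+EV with the smallest unadjusted p among those with a fold of at least 1.5 and groups apart. Red points are the ND+EV arrays, blue points the ND arrays, short bars the group means; the choice required the groups not to overlap, and what can be read is how far each ND array lies from the ND+EV arrays.

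Among characterised genes with groups apart, the 5 largest folds belonged to nuclear-encoded subunits of the respiratory chain. NDUFC2, of complex I, the entry point for electrons from NADH, had 6.98, 7.91 and 7.20 in ND+EV, against 4.81, 6.68 and 5.61 in ND. ND replicate 1 was the lowest by a wide margin, and the difference was 1.67 ± 0.46 with an adjusted p of 0.539 in limma. COX6C, of cytochrome c oxidase (complex IV), had 8.77, 9.33 and 8.85 in ND+EV, against 6.30, 8.30 and 7.95 in ND. ATP5J2, of ATP synthase, had 10.50, 10.88 and 10.62 in ND+EV, against 7.98, 9.85 and 9.94 in ND. On both of these probe sets ND replicates 2 and 3 lay near each other and ND replicate 1 far below them. A second ATP5J2 probe set had 8.36, 8.70 and 8.51 in ND+EV, against 6.55, 7.92 and 8.77 in ND (0.77 ± 0.43). Its groups overlapped, with ND replicate 3 the highest.

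UQCR10, of complex III, had 9.23, 9.10 and 9.45 in ND+EV, against 7.33, 9.10 and 7.27 in ND, so that ND replicate 2 reached the ND+EV level and both other ND arrays were low. NDUFB2, another complex I subunit, had 10.03, 10.61 and 10.16 in ND+EV, against 7.65, 9.82 and 9.31 in ND. Steadier members had smaller differences. NDUFV2, also of complex I, had 8.83, 9.01 and 8.95 in ND+EV, against 7.94, 8.48 and 8.26 in ND (0.70 ± 0.18). ATP5A1, a catalytic-head subunit of ATP synthase, had 10.67, 10.77 and 10.80 in ND+EV, against 9.95, 10.17 and 9.93 in ND (0.73 ± 0.21), and there the 3 ND arrays were close together.

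Of 31 measured complex I subunits, 31 were higher in ND+EV. Of them, 22 had groups apart (6.98% of all genes) and 19 an unadjusted p below 0.05 (4.88% of all genes). Their median difference was 0.71, against 0.0072 over all genes, and none passed the adjusted threshold. All 5 measured complex IV subunits (median 0.63) and all 11 of ATP synthase (median 0.65) were higher too. A score per array shows which arrays carry this: each gene's log2 signal was centred on its mean over the 6 arrays, and the centred values of the list were averaged. For complex I it was 0.25, 0.49 and 0.31 in ND+EV, against -0.91, 0.06 and -0.20 in ND. The groups did not overlap, yet ND replicate 1 lay far below both other ND arrays. Against the ND+EV mean, the median complex I gene was 1.11 lower in ND replicate 1, 0.34 lower in ND replicate 2 and 0.55 lower in ND replicate 3. Fewer cells of a type and less RNA per cell cannot be told apart in such bulk tissue.

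ND replicate 2 was the array nearest to ND+EV, and its median complex I gene was 0.34 below the ND+EV mean. For comparison, genes were split into 5 equal classes by mean signal. In the brightest class the median gene of ND replicate 2 was 0.010 above the ND+EV mean. With ND replicates 1 and 3 left out, 29 of 31 complex I subunits remained higher in ND+EV with a median of 0.34, as did 4 of 5 complex IV subunits (0.47) and 10 of 11 of ATP synthase (0.34). Leaving out ND replicate 1 alone gave medians of 0.41, 0.30 and 0.33 for complex I, complex IV and ATP synthase.

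The subunits encoded in mitochondrial DNA gave other values. ND1, a complex I subunit made inside the mitochondrion, had 12.56, 12.35 and 12.46 in ND+EV, against 12.42, 12.22 and 12.23 in ND, and the groups overlapped. ND5 differed by 0.07 ± 0.11 and CYTB, of complex III, by 0.28 ± 0.14. These 3 genes were chosen after their values had been seen. Over the list of 8, 5 were higher, with a median of 0.089 (-0.25 after cyclic loess, a between-array scaling), and their score was 0.08, -0.06 and 0.09 in ND+EV, against 0.03, -0.19 and 0.05 in ND. In ND replicate 1 the median of these genes was 0.02 above the ND+EV mean, while that of complex I was 1.11 below it. Most of the mitochondrially encoded probe sets have signals near the top of the array's range.

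Other mitochondrial lists showed smaller differences. Proteins of the mitochondrial ribosome were higher in 44 of 53 (median 0.29, 9 higher at an unadjusted p below 0.05 and 1 lower, against 4.88% and 3.14% of all genes), and import machinery was higher in 11 of 16 (median 0.27). With ND replicates 1 and 3 left out, both medians were 0.14, with 39 of 53 and 11 of 16 higher, and without ND replicate 1 alone that of the mitochondrial ribosome was 0.15. MRPS21, of the small mitochondrial ribosomal subunit, had 8.24, 8.58 and 8.18 in ND+EV, against 6.41, 7.92 and 7.17 in ND. TIMM8B, a chaperone of the intermembrane space, had 6.39, 6.58 and 6.22 in ND+EV, against 5.60, 6.02 and 5.98 in ND. Of 12 respiratory chain assembly factors 6 were higher (median 0.0022), as were 4 of 11 genes of mitochondrial biogenesis and dynamics (median -0.032). The median signals of these lists were 4.75 and 5.59, against 8.22 for complex I and 5.83 for the mitochondrial ribosome. With the dimmest 50% of probe sets left out, the assembly factors had a median of 0.19. The part of signal level in this contrast was not tested. COX17, a copper chaperone for complex IV, stood out among assembly factors at 1.29 ± 0.38.

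Genes of fuel use differed by smaller amounts. Of 16 genes of the TCA cycle, 14 were higher (median 0.23) and none reached an unadjusted p of 0.05. For fatty acid uptake and oxidation 18 of 22 were higher (0.16), and SLC25A20, the carrier that brings acylcarnitines into mitochondria, had 6.71, 6.53 and 6.85 in ND+EV, against 5.79, 6.30 and 6.20 in ND (0.60 ± 0.15). Breakdown of ketones and branched-chain amino acids had 13 of 15 higher (0.29), among them PCCB (0.56 ± 0.20), ACADSB (0.46 ± 0.17) and DBT (0.34 ± 0.12). A second PCCB probe set differed by 0.28 ± 0.23, with groups that overlapped. Glucose uptake and glycolysis had 12 of 17 higher (0.18, and -0.012 after cyclic loess). VDAC2, a channel of the outer mitochondrial membrane, and SLC25A4, which exchanges ADP for ATP across the inner one, differed by 0.73 ± 0.19 and 0.89 ± 0.30. With ND replicates 1 and 3 left out, the medians were 0.076 for the TCA cycle, 0.067 for fatty acids, 0.11 for ketones and branched-chain amino acids and 0.0067 for glycolysis.

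Cytosolic ribosomal proteins of the large subunit were higher in ND+EV in 21 of 21 measured genes (median 0.47, 7 at an unadjusted p below 0.05). Those of the small subunit were higher in 15 of 15 (median 0.44, 6 at that p). Over all genes, 4.88% were higher at that p. RPL32 had 5.54, 6.05 and 5.42 in ND+EV, against 4.72, 5.23 and 4.85 in ND. RPS27A, which is made as a fusion with ubiquitin, had 8.08, 8.30 and 7.87 in ND+EV, against 6.55, 7.68 and 7.28 in ND. The large-subunit score was 0.25, 0.49 and 0.02 in ND+EV, against -0.82, 0.14 and -0.09 in ND, so ND replicate 2 lay above ND+EV replicate 3. With ND replicates 1 and 3 left out, 14 of 21 (median 0.11) and 11 of 15 (median 0.20) were higher, and without ND replicate 1 alone the medians were 0.23 and 0.16. Ribosomal protein genes have many near-identical copies in mammalian genomes, and which copies a probe set reads was not tested.

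Translation factors had 22 of 24 higher (median 0.30), led by EIF2S2, a subunit of the factor that brings the first transfer RNA (0.62 ± 0.19). Their score was 0.10, 0.34 and 0.04 in ND+EV, against -0.45, 0.11 and -0.14 in ND, so ND replicate 2 lay above ND+EV replicates 1 and 3. The median was 0.070 (16 of 24 higher) without ND replicates 1 and 3, and 0.13 without ND replicate 1 alone. Genes of protein breakdown gave similar counts. All 9 measured subunits of the proteasome's core particle were higher (median 0.58), 6 at an unadjusted p below 0.05, against 4.88% of all genes. Of its regulatory particle, 13 of 14 were higher (median 0.35). PSMB6, a catalytic-type core subunit, had 6.96, 7.21 and 6.64 in ND+EV, against 6.10, 6.30 and 5.86 in ND. PSMD14, which removes ubiquitin from substrates, had 6.92, 7.15 and 7.03 in ND+EV, against 6.18, 6.58 and 6.29 in ND. A second PSMD14 probe set had 6.49, 6.74 and 6.56 in ND+EV, against 5.97, 6.85 and 5.70 in ND (0.42 ± 0.27). Its groups overlapped, with ND replicate 2 the highest. Without ND replicates 1 and 3 the core particle had a median of 0.20 (8 of 9 higher), while the regulatory particle had -0.029 (7 of 14).

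Of 19 ubiquitin-conjugating enzymes, 17 were higher (median 0.23, and 0.12 without ND replicates 1 and 3). UBE2D3 had 6.78, 7.61 and 6.82 in ND+EV, against 5.76, 6.22 and 6.10 in ND, and UBE2B had 5.55, 6.04 and 5.66 in ND+EV, against 4.35, 5.33 and 4.15 in ND. The ubiquitin ligases of muscle atrophy had 4 of 6 higher, with a median of 0.065 and none at an unadjusted p of 0.05.

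**Figure D3:**
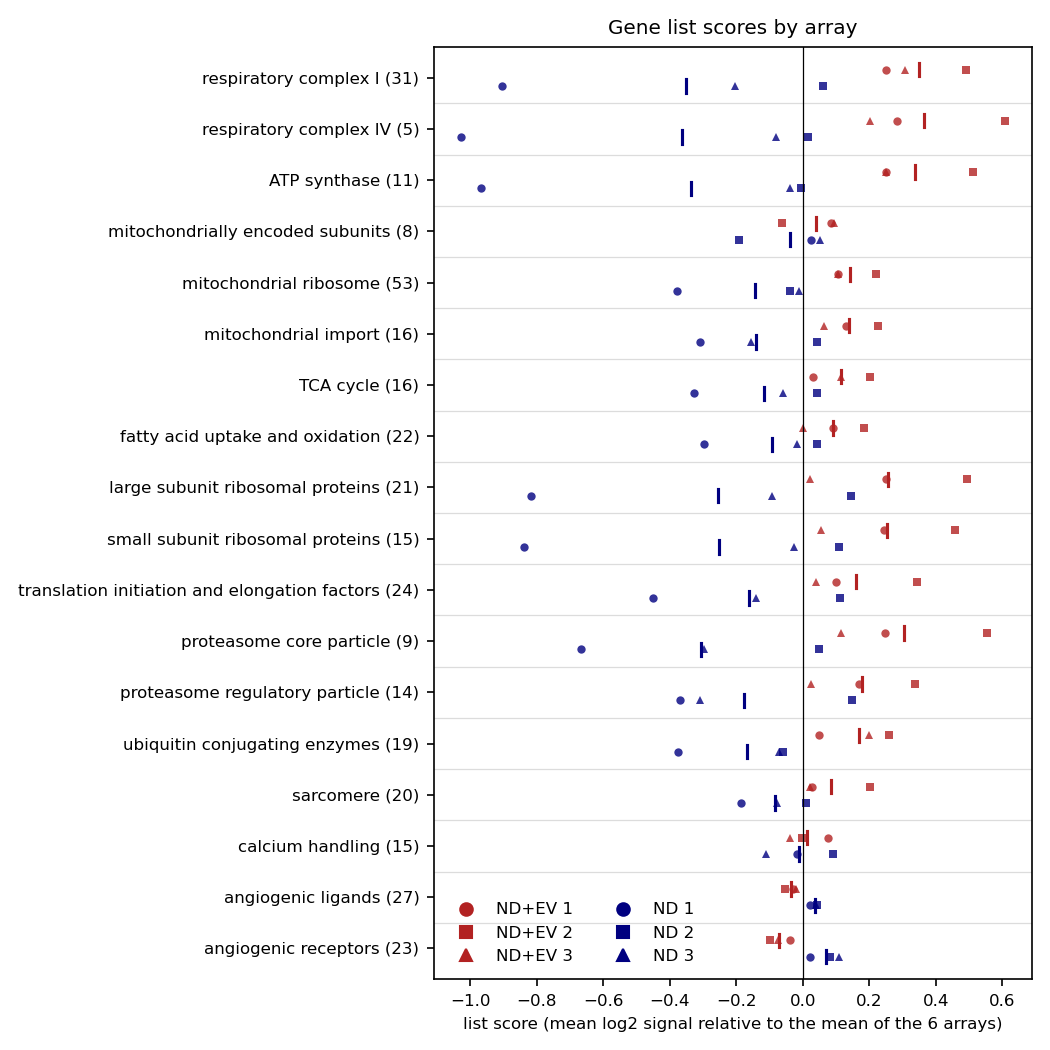
List score (average of the list's log2 signals after centring each gene on its 6-array mean, x axis) for 18 gene lists, with the number of genes measured in brackets. Red points are ND+EV arrays, blue points ND arrays, short bars the group means; for complex I the ND+EV arrays lie at 0.25 to 0.49 and ND 1 at -0.91, while the angiogenic receptors run the other way within a narrow range.

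The difference varied with signal. When the 9738 genes were split into 5 equal classes by mean signal, the brightest class had a median difference of 0.16 and 70.2% of its genes higher in ND+EV, whereas the dimmest had -0.035 and 40.6%. Within the brightest class, the median gene was 0.25 lower in ND replicate 1 and 0.18 lower in ND replicate 3 than the ND+EV mean, and 0.010 higher in ND replicate 2. Members of complex I in that class (27 of 31) had a median of 0.73. The part of signal level in the list differences was not tested. After cyclic loess, which removes trends with signal between arrays, the medians of complex I, both ribosomal lists and both proteasome lists were above 0. Medians that it turned below 0 included those of the sarcomere (-0.16), ventricular markers (-0.27) and mitochondrially encoded subunits (-0.25). Those of fibroblast markers (-0.022) and glycolysis (-0.012) turned as well.

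**Figure D4:**
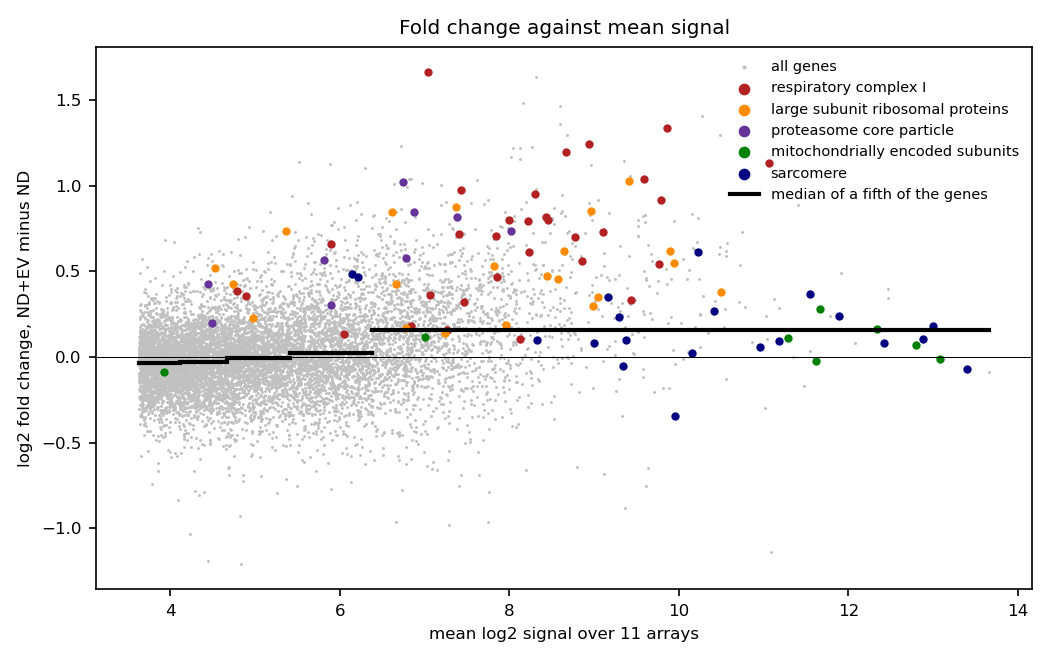
Log2 fold change, ND+EV minus ND (y axis), against mean log2 signal over all 11 arrays (x axis) for 9738 genes (grey), with 5 gene lists in colour and black bars for the median of each of the 5 signal classes. Complex I genes (red) lie above the 0.16 median of the highest class in most cases, and sarcomere genes (blue) and mitochondrially encoded genes (green), at higher signal, mostly lie near it or near 0.

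Genes of the contractile apparatus, which are among the brightest on the array, differed less. Of 20 sarcomere genes 17 were higher, with a median of 0.10 (-0.16 after cyclic loess). TPM1, a tropomyosin, was the sarcomere gene with an unadjusted p below 0.05, with 10.16, 10.42 and 10.42 in ND+EV, against 9.52, 9.94 and 9.70 in ND. Calcium handling had 6 of 15 higher (median -0.053). Genes of cardiac stress and of the fetal program had 14 of 21 lower, with a median of -0.14 (0.015 without ND replicate 3). FHL1, a LIM protein that responds to load, had 6.75, 6.75 and 6.70 in ND+EV, against 7.10, 7.76 and 7.31 in ND (-0.66 ± 0.23). FLNC, which crosslinks actin at the Z disc, had 8.28, 8.24 and 8.44 in ND+EV, against 8.76, 9.0 and 9.14 in ND (-0.64 ± 0.24). In both, the ND arrays nearest to ND+EV were those of replicate 1, not replicate 2.

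The angiogenic ligands and receptors are the genes nearest to the purpose of the injection. The receptor median lay below 0, while the ligand median was near that of all genes (0.0072). Among 27 ligands 11 were higher and 16 lower in ND+EV (median -0.023), and 4 were lower at an unadjusted p below 0.05 (3.14% of all genes). The ligand median was 0.032 with the dimmest 50% of probe sets left out, and 0.012 without ND replicate 3. Most ligands were dimmer than the brightest class, and the 9 members in that class had a median of 0.086, while the 7 receptors in it had -0.25. VEGFA, the main growth factor of endothelial cells, had 9.72, 9.32 and 9.28 in ND+EV, against 10.52, 9.87 and 9.86 in ND. The groups were 0.14 apart, and the difference was -0.65 ± 0.19 with an adjusted p of 0.548 in limma. A second VEGFA probe set had 8.91, 8.64 and 8.50 in ND+EV, against 9.51, 9.20 and 8.90 in ND (-0.52 ± 0.18), where the groups overlapped slightly.

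The ephrin ligands EFNB2 and EFNA1, which act between neighbouring cells in forming vessels, were lower as well. EFNB2 had 6.83, 6.48 and 6.93 in ND+EV, against 7.12, 7.21 and 7.25 in ND. EFNA1 had 7.35, 7.27 and 7.63 in ND+EV, against 7.88, 7.98 and 8.06 in ND. For both the ND arrays were close together and ND replicate 2 was not nearer to ND+EV than the others. EGFL7, an endothelial secreted factor, differed by -0.50 ± 0.18 with groups that overlapped.

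Of 23 angiogenic receptors, 17 were lower in ND+EV, 3 with groups apart (5.47% of all genes), and the median was -0.19. IGF1R, the receptor for insulin-like growth factors, had 6.02, 6.11 and 6.07 in ND+EV, against 6.27, 6.85 and 6.88 in ND (-0.60 ± 0.16, adjusted p = 0.539 in limma), and ND replicate 1 was the nearest to ND+EV. NOTCH4, an endothelial Notch receptor, had 6.01, 5.64 and 5.70 in ND+EV, against 6.61, 6.03 and 6.05 in ND. PDGFRB, carried by pericytes, differed by -0.29 ± 0.14.

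VEGFA's own receptors were looked up after their values had been seen. FLT1 differed by -0.02 ± 0.18 and the coreceptor NRP1 by -0.25 ± 0.13. KDR had 6.76, 6.81 and 6.62 in ND+EV, against 6.06, 7.43 and 5.94 in ND, so that the ND arrays lay on both sides of the ND+EV arrays. The receptor scores were -0.04, -0.10 and -0.07 in ND+EV, against 0.02, 0.08 and 0.11 in ND. These do not overlap, but the scores span a far narrower range than those of complex I. The receptor median was -0.10 with ND replicates 1 and 3 left out, and between -0.22 and -0.054 with any one array left out. Downstream effectors and inhibitors of vessel growth had 12 of 26 higher (median -0.048).

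**Figure D5:**
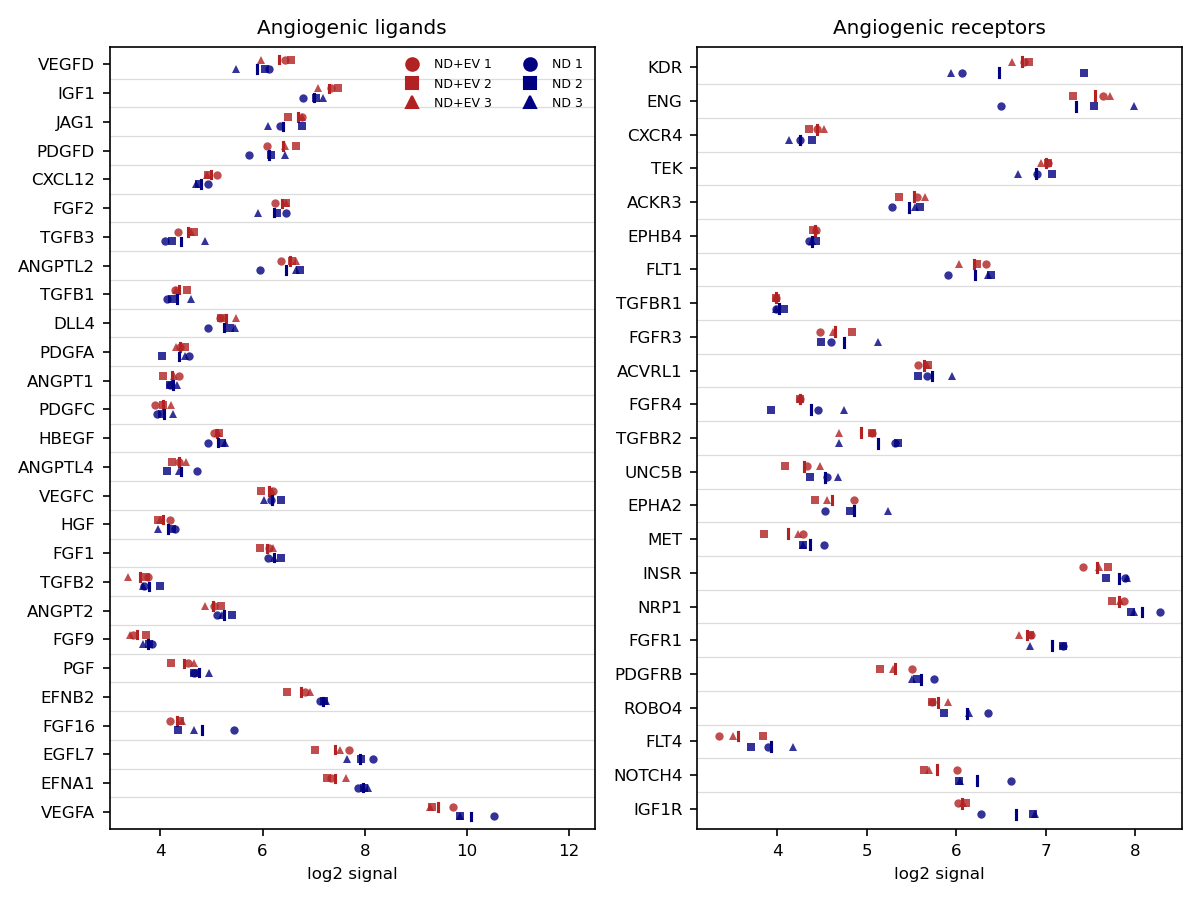
Log2 signal (x axis) of 27 angiogenic ligands and 23 receptors, ordered by the difference between ND+EV (red) and ND (blue), with short bars for group means and 1 point per array. VEGFA and IGF1R stand at the bottom of their lists with all 3 ND+EV arrays below all 3 ND arrays, while the ND arrays of KDR lie on both sides of the ND+EV arrays.

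Genes known to respond to hypoxia had 12 of 23 higher (median 0.011). At an unadjusted p below 0.05, 5 of them were higher and 2, VEGFA and PFKFB4, a regulator of glycolysis, were lower, against 4.88% and 3.14% of all genes. Basement membrane and integrin genes had 13 of 17 lower (median -0.063), with COL4A1, a chain of the vessel basement membrane, at -0.33 ± 0.12 and ITGA5, a fibronectin receptor chain, at -0.41 ± 0.14. PDE2A, a phosphodiesterase stimulated by cyclic GMP, had 6.26, 6.05 and 6.07 in ND+EV, against 6.32, 6.64 and 6.75 in ND, opposite in direction to RXFP1 in the same nitric oxide, cyclic GMP and relaxin list (8 of 17 higher). Genes of vesicle formation and uptake had 22 of 28 higher (median 0.15), but 13 of 28 (median -0.022) without ND replicates 1 and 3, and CHMP6, of the membrane-cutting ESCRT machinery, was lower at -0.43 ± 0.15.

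Marker genes of cell types were read to describe the tissue on each array. The ventricular markers ACTC1, MYL2 and MYH7 were among the brightest genes of every array. MYL2 had 12.89, 13.06 and 13.06 in ND+EV, against 12.40, 13.03 and 13.03 in ND. ACTC1 differed by -0.07 ± 0.13 on its brightest probe set. A second ACTC1 probe set had 11.67, 11.51 and 11.36 in ND+EV, against 10.80, 11.21 and 11.16 in ND (0.46 ± 0.17), so its probe sets disagreed. Of 11 such markers 8 were higher (median 0.083, and -0.27 after cyclic loess). MYL7, an atrial myosin light chain, varied most: 9.79, 8.98 and 9.63 in ND+EV, against 6.35, 8.13 and 9.0 in ND. The 10 atrial markers had a median of 0.13, with scores of 0.00, 0.08 and 0.09 in ND+EV, against -0.30, -0.0035 and 0.13 in ND.

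Endothelial markers had 7 of 15 higher (median -0.016). CYYR1, the endothelial marker with the smallest p, had 9.03, 8.67 and 8.74 in ND+EV, against 7.52, 8.27 and 8.04 in ND. It was higher by 0.87 ± 0.19, whereas EGFL7, in the same list, was lower by 0.50 ± 0.18. PECAM1, the common endothelial adhesion molecule, had 7.93, 7.56 and 7.92 in ND+EV, against 7.92, 7.88 and 7.85 in ND. Pericyte and smooth muscle markers had medians of -0.063 and -0.082, each with 4 of 8 higher.

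Fibroblast markers had 13 of 15 higher (median 0.24, -0.02 after cyclic loess and 0.0083 without ND replicate 1), with scores of 0.09, 0.16 and 0.08 in ND+EV, against -0.58, 0.04 and 0.20 in ND. DCN, a matrix proteoglycan of fibroblasts, had 11.93, 12.02 and 11.92 in ND+EV, against 10.69, 11.80 and 11.91 in ND, so the low array was again ND replicate 1. COL1A1, a chain of collagen I, had 10.01, 9.99 and 10.14 in ND+EV, against 8.87, 9.53 and 11.02 in ND. ND replicates 1 and 3 thus stood apart from ND+EV in opposite directions on this probe set. A second COL1A1 probe set had 6.71, 6.91 and 6.90 in ND+EV, against 6.73, 6.38 and 6.82 in ND. There ND replicates 1 and 3 lay within the ND+EV range and ND replicate 2 was the lowest. Macrophage markers had 10 of 13 higher (median 0.15, scores -0.04, 0.27 and 0.14 in ND+EV, against -0.32, -0.09 and 0.04 in ND). MRC1, a mannose receptor of resident macrophages, had 5.25, 5.93 and 5.62 in ND+EV, against 4.88, 5.15 and 5.02 in ND. The part of these marker levels in the other differences was not tested.

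Oxidative stress defence had 22 of 24 higher (median 0.27). NFE2L2, its central transcription factor, had 8.16, 8.87 and 8.45 in ND+EV, against 7.75, 8.22 and 7.98 in ND. PRDX1, a peroxidase, and HMOX2, the constitutive heme oxygenase, differed by 0.53 ± 0.17 and 0.60 ± 0.19. The median of this list was 0.070 without ND replicates 1 and 3. Interferon-stimulated genes had 15 of 20 higher with a median of 0.071 and none at an unadjusted p below 0.05. Complement and coagulation genes had 14 of 18 higher (median 0.14), with C1R, a protease of the classical pathway, at 6.95, 6.89 and 6.81 in ND+EV, against 5.95, 6.54 and 6.38 in ND. Fibrillar collagen and matrix genes had 20 of 28 higher, with a median of 0.052 that was below 0 after quantile or cyclic loess scaling.

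The same difference under the high fat diet, HFD+EV minus HFD, rests on other arrays, 3 against 2. The median of complex I was -0.17 there, with 7 of 31 higher, that of the large ribosomal subunit -0.21, that of the proteasome core -0.06 and that of interferon-stimulated genes 0.67, with 20 of 20 higher. Tested as an interaction in limma, the difference of the EV effects passed for no probe set (0 of 20668, 0.0%, smallest adjusted p = 0.572), and 1740 (8.42%) had an unadjusted p below 0.05. VEGFA differed by -0.19 under the high fat diet and -0.65 under the normal diet, a gap of 0.46 ± 0.28 (adjusted p = 0.655 in limma). MYL7 had the largest interaction among the named genes, -3.13 ± 0.82 (adjusted p = 0.572 in limma).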

How the data were processed

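For 11 Affymetrix whole-transcript arrays the authors deposited log2 signals, already normalized, made from 50 ng of total RNA per the labels' protocols. Transcriptome Analysis Console is the tool in the submitters' processing notes. No source used here gives its version, the summary and scaling method, the genome build or hybridisation dates, so a shared processing batch was not tested and no coordinates are printed. Precision is limited by the number of arrays.

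Of 27558 probe sets, 13157 had 1 gene symbol in the platform annotation, 523 several and 13878 none. Gene IDs matched 12841 of those with 1 symbol to a current gene table, and 7 symbols were updated from it. The dimmest 25% by mean signal (under 3.63) were dropped, leaving 20668. limma 3.58.1 in R 4.3.3 fitted 1 mean per group over all 11 arrays (7 residual and 3.62 prior degrees of freedom). Contrasts were tested two-sided with Benjamini-Hochberg adjustment at 0.05, and the functions were tested on simulated data. There, 200 of 20668 probe sets were given a change in ND+EV. Of changes of 1.5-fold 16.42% passed the adjusted threshold, of 2-fold 70.15% and of 4-fold 90.91%, with 4 false calls. Changes of about 1.5-fold would thus mostly be missed with these arrays. A gene's value is that of its brightest probe set.

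The arrays compared and the 75 gene lists were chosen with earlier results of these data known, and the list of mitochondrially encoded subunits was added last. Of these lists, 68 had at least 5 measured members, and none was given a test. Where the platform uses older symbols, 25 were supplied by hand. Named genes are the 12 higher and 12 lower genes with the smallest p, a fold of at least 1.5 and groups apart, the 5 of each with the largest fold and the 5 with the widest gap, up to 3 of each list at an unadjusted p of at most 0.05, 3 angiogenic ligands and 3 receptors by p, and the 3 brightest markers of 7 cell types. FLT1, KDR, NRP1, ND1, ND5 and CYTB fall outside this rule. Of the genes so named, the text describes those that bear on its comparisons.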

Additional observations from a re-analysis of the deposited data

How the results depend on the processing

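Leaving out 1 array at a time, no filter, a filter at 50%, quantile and cyclic loess scaling, array weights, trended moderation, a fit on the 6 arrays alone and a replicate block were tried, as was leaving out ND replicates 1 and 3 together, where the lone ND array is assumed to vary like the other groups. The count past the adjusted threshold was 0 in each, except 2 without ND replicate 2. With 1 array left out, that count ranged from 0 to 2. The higher count at an unadjusted p below 0.05 then ranged from 628 to 1605 and the lower count from 496 to 1151. These are counts of 20668 probe sets. The 50% filter left only 13779 to be tested, so its counts have a smaller base and cannot be set directly against these ranges. The lower count was 473 with the 50% filter, and the higher count 482 without ND replicates 1 and 3. Same-numbered arrays deviated together at correlations of 0.078, 0.199 and 0.103. Different-numbered arrays gave -0.182 to 0.052, so each same-numbered correlation was above all of these. One same-numbered correlation was under the set limit of 0.1, and the main fit did not take the numbers as pairs. Whether the numbers mark a shared source was not tested. The replicate block gave 0 probe sets past the adjusted threshold, with 1306 higher and 806 lower at an unadjusted p below 0.05. The fit on the 6 arrays alone, whose spread comes from ND and ND+EV only, gave 845 higher and 545 lower at that p.

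The cause of the following movements was not tested. Of the 41 lists described, 36 had a median that moved by over 1.5 times without ND replicates 1 and 3, and 38 did with at least 1 single array left out, 26 of them without ND replicate 1, so the lists named here are examples. Without ND replicates 1 and 3, medians moved to 0.34 for complex I and ATP synthase, 0.14 for the mitochondrial ribosome and import, 0.11 and 0.20 for the large and small ribosomal subunits, 0.070 for translation factors, 0.12 for ubiquitin-conjugating enzymes, -0.038 for ventricular markers, 0.076 for the TCA cycle, 0.11 for ketone and branched-chain amino acid breakdown, 0.0067 for glycolysis, 0.20 and -0.029 for the proteasome core and regulatory particles, -0.088 for angiogenic ligands, -0.10 for angiogenic receptors, -0.094 for nitric oxide, cGMP and relaxin, -0.022 for vesicle biogenesis, 0.070 for oxidative stress defence, -0.14 for basement membrane and integrins and -0.084 for hypoxia response genes, and the difference turned to -0.032 for MYL2, -0.038 for MYH7 and -0.70 for KDR. Cyclic loess moved medians to -0.012 for glycolysis, -0.0067 for angiogenic ligands, -0.16 for the sarcomere, -0.12 for basement membrane and integrins, -0.27 for ventricular markers and -0.25 for mitochondrially encoded subunits, and turned MYL2 (-0.27), MYH7 (-0.34), COL1A1 (-0.064), ND1 (-0.25), ND5 (-0.37) and CYTB (-0.10). Quantile scaling turned ACTC1 (0.017) and MYH7 (-0.032), and array weights turned KDR (-0.027) and moved the nitric oxide, cGMP and relaxin list to -0.091. The 50% filter moved assembly factors to 0.19 and angiogenic ligands to 0.032.

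With 1 array left out, genes that turned ranged from -0.14 to 0.038 (ACTC1), -0.23 to 0.85 (COL1A1), -0.17 to 0.069 (FLT1), -0.016 to 0.73 (KDR), -0.0052 to 0.14 (MYH7), -0.029 to 0.29 (MYL2) and -0.14 to 0.041 (PECAM1). Medians ranged from 0.41 to 0.89 for complex I, 0.30 to 0.72 for complex IV, 0.33 to 0.81 for ATP synthase, 0.23 to 0.72 and 0.16 to 0.64 for the large and small ribosomal subunits, 0.13 to 0.44 for translation factors and 0.0083 to 0.30 for fibroblast markers, with the lowest value of each without ND replicate 1. Others ranged from -0.092 to 0.012 for angiogenic ligands, -0.22 to -0.054 for receptors, -0.11 to -0.058 for basement membrane and integrins, -0.080 to 0.036 for calcium handling, -0.014 to 0.13 for hypoxia response genes, 0.19 to 0.42 for ketone and branched-chain amino acid breakdown, -0.12 to 0.013 for nitric oxide, cGMP and relaxin, and 0.056 to 0.21 for the sarcomere.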

Other observations

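The smallest adjusted p of the comparison belonged to a probe set that the platform annotation used here leaves unnamed. It had 3.44, 2.95 and 3.78 in ND+EV, against 4.89, 5.25 and 4.90 in ND, a difference of -1.62 ± 0.20 with an adjusted p of 0.120 in limma. A second unnamed probe set had 8.09, 8.20 and 8.05 in ND+EV, against 5.67, 7.06 and 6.45 in ND (1.72 ± 0.27). It was 1 of the 2 that passed without ND replicate 2.

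Among lower genes with groups apart, the largest fold after YJEFN3 belonged to RN5-8S, a ribosomal RNA, which had 11.11, 10.69 and 11.39 in ND+EV, against 12.67, 12.09 and 11.84 in ND (-1.14 ± 0.40), which is opposite in direction to the ribosomal protein genes. The interferon gene IFN-ALPHA-10, of a family with near-identical copies that a probe set may not separate, had 4.13, 3.33 and 4.04 in ND+EV, against 5.11, 4.29 and 4.61 in ND. The microRNA gene MIR326 had 4.06, 4.30 and 3.86 in ND+EV, against 4.34, 4.67 and 5.63 in ND, where ND replicate 3 stands alone. Genes of growth and division also had values apart. CDK4, a kinase of cell cycle entry, had 5.01, 4.63 and 4.63 in ND+EV, against 3.94, 4.35 and 4.38 in ND, and CENPF, a kinetochore protein, had 5.14, 4.50 and 4.71 in ND+EV, against 4.45, 4.25 and 4.34 in ND. Of 20 cell cycle genes 14 were higher (median 0.17, and 0.053 without ND replicates 1 and 3). BMP5, a bone morphogenetic protein, had 6.11, 6.81 and 6.35 in ND+EV, against 5.21, 5.46 and 5.88 in ND (0.91 ± 0.30). CRY2, a repressor of the circadian clock, had 7.57, 8.02 and 7.58 in ND+EV, against 7.38, 7.38 and 7.40 in ND. None of these passed the adjusted threshold.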
